A study of Mus musculus with 6 samples.

Results

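The respiratory chain and ATP synthase genes were compared between starved and fed mouse fibroblasts. Members were taken by symbol from the array's annotation, as every gene whose name starts with Ndufa, Ndufb, Ndufc, Ndufs, Ndufv, Uqcr, Cox4 to Cox8 or Atp5, together with Sdha, Sdhb, Sdhc, Sdhd, Cycs and Cyc1. This gave 86 genes of the 12393 tested, of which 33 encode subunits of complex I, 5 its assembly factors, 4 complex II, 10 complex III and cytochrome c, 17 complex IV and 17 ATP synthase. Ndufa4 was placed with complex IV, where its protein is now known to sit, despite its complex I name.

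The respiratory chain of the inner mitochondrial membrane passes electrons from NADH through complex I, or from succinate through complex II, to ubiquinone, then to complex III, to the small carrier cytochrome c, and to oxygen at complex IV. Complexes I, III and IV pump protons out of the matrix, and ATP synthase, also called complex V, makes ATP as the protons flow back. All measured members are nuclear genes, whose proteins are imported and joined with the few subunits encoded by mitochondrial DNA. Assembly factors help to build a complex but are not part of the finished enzyme.

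The cells were mouse embryonic fibroblasts labelled wild type, either starved for 6 h or kept in normal medium as control. The labels do not state what was withdrawn from the medium, nor whether biological replicates were separate cultures. Total RNA was hybridised to 3 arrays per group. The p-values reflect the spread among these arrays alone, and that spread may be technical. Values are log2 signals, a difference is starved minus control on that scale, and ± gives the SD (n = 3 arrays). Signals of different probe sets do not rank transcripts by abundance, and in RNA from a whole culture a smaller share of cells carrying a transcript and less of it per cell cannot be told apart.

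Fibroblast identity was checked against markers. Control signals of the collagen gene Col1a2 (14.03) and of Pdgfra (10.37) were high, while the blood cell marker Ptprc (3.16), the endothelial marker Tek (3.24) and the epithelial keratin Krt18 (3.39) lay near the lowest value of the table, 2.38. Other markers of these lists were higher in control arrays, among them the macrophage genes Cd14 (7.75), which was above the array medians of 6.73 to 6.81, and Csf1r (6.14), and the epithelial keratin Krt8 (5.19). Of 11 measured fibroblast markers 7 rose and 2 fell, and Thy1 was dim (4.99 in control); their summed signal ranged from 117.9 to 119.0 in control and from 120.5 to 120.8 in starved arrays. Of 9 macrophage and blood markers Cd68 rose (0.44) and Cd14 (−0.46) and Gata1 (−0.32) fell, and their summed signal ranged from 42.7 to 43.1 in control and from 41.7 to 43.1 in starved arrays. Endothelial markers fell in 2 of 5 cases (summed 19.1 to 19.5 against 18.6 to 19.0), and of 6 epithelial markers Cdh1 rose, from a dim 3.44 by 0.91 (summed 25.5 to 26.2 against 25.8 to 26.2). Of 6 striated muscle markers 1 rose and 1 fell (summed 26.8 to 27.5 against 26.8 to 27.1). The part of other cells in the results was not tested.

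Starved cells had lower signals of nearly every called member. Of the 86 genes 42 fell (48.8%), 1 rose and 43 did not pass, by limma with Benjamini-Hochberg adjustment over all 12393 genes at an adjusted p of 0.05. Among all genes tested 22.0% fell and 22.1% rose. The median difference of the members was −0.19, a level 1.14-fold lower, against −0.05 for all genes. The 3 starved arrays lay below the 3 control arrays for 51 members, where 28.4% of all genes did so, and above them for 3 members, where 25.7% of all genes did.

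These differences were small beside the whole range of the comparison. Most members changed by less than 0.5, and those beyond that were Ndufaf4 (−1.47), Cycs (−0.86), Ndufc1 (−0.69), Ndufaf3 (−0.63), Ndufv3 (−0.62), Uqcr11 (−0.61) and Ndufb7 (−0.60). The highest member was Ndufs4 (0.27). Many probe sets of the chain were bright. Of the 52 members with a mean control signal of 11 or more, a bound chosen after the values were seen, 28 fell and 0 rose (53.8% lower, median −0.21), whereas 31.0% of all 709 genes that bright fell and 20.7% rose (median −0.04).

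**Figure D1:**
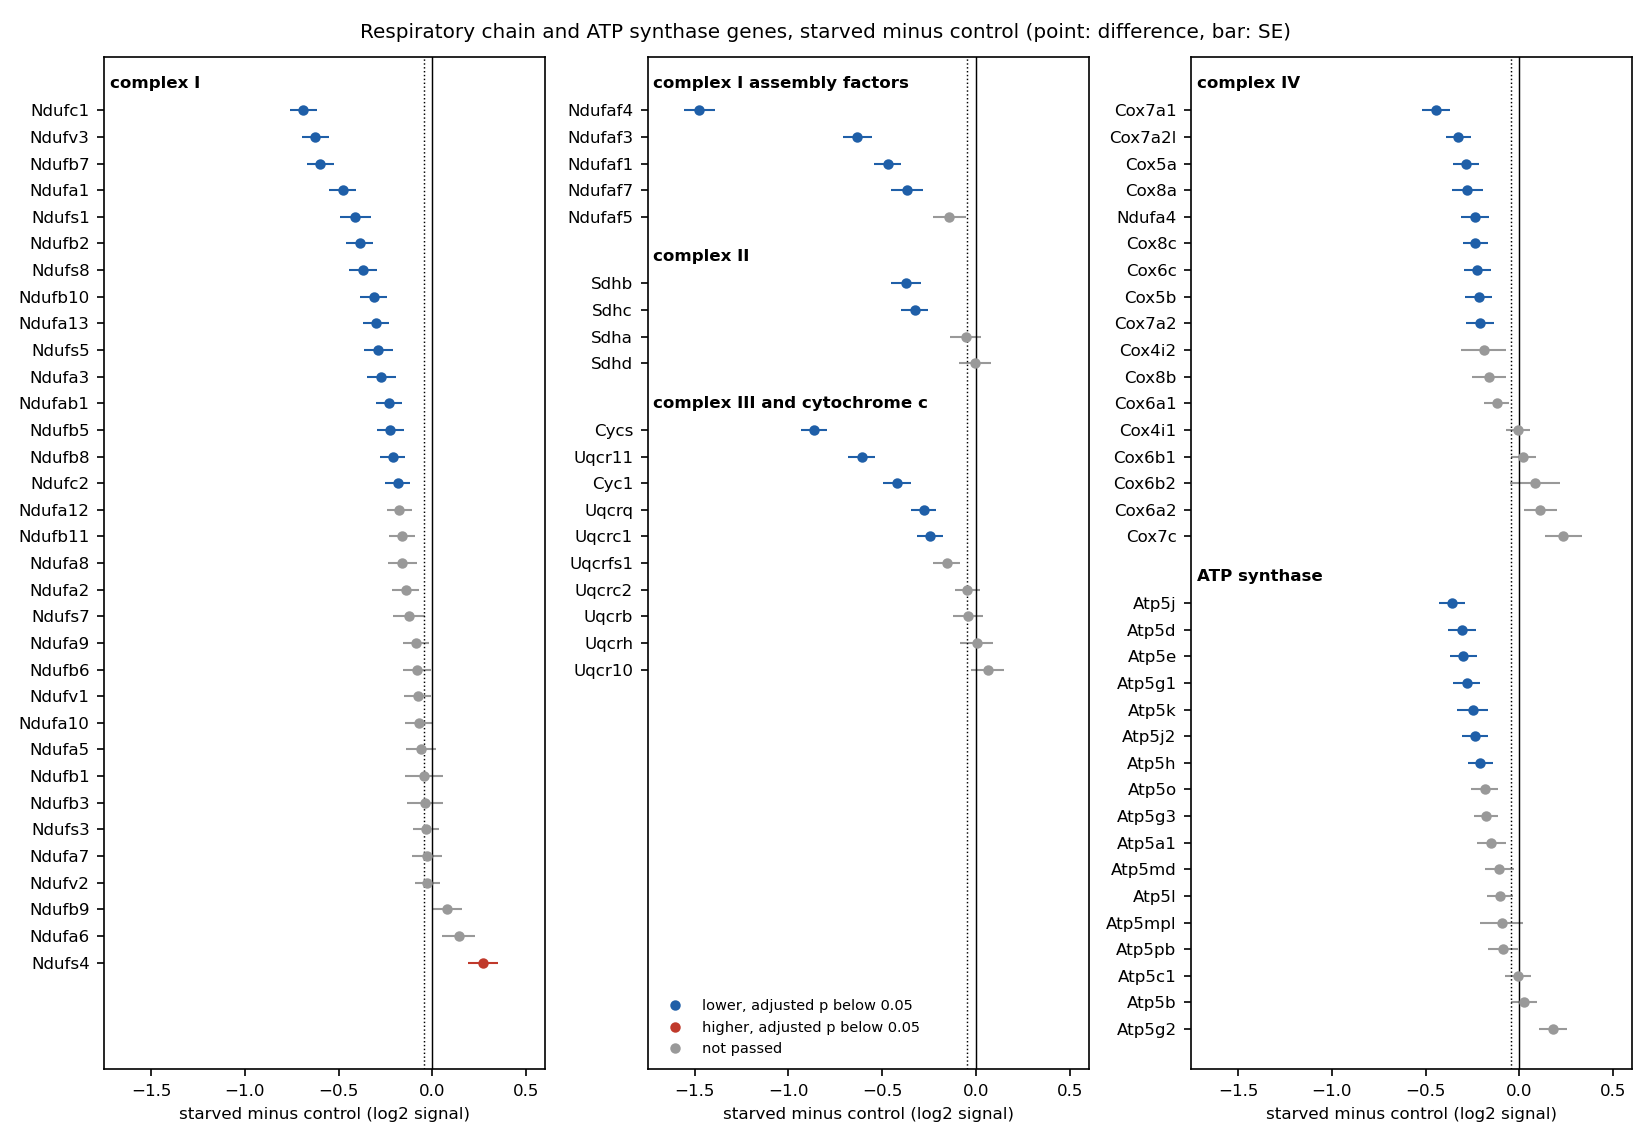
Difference of each of the 86 members (starved minus control, log2 signal, horizontal axis) with its SE, grouped by complex and sorted by size. Blue points fell and the red point rose at an adjusted p below 0.05, grey points did not pass, and the dotted line marks the median of all genes (−0.05). Falls occur in every group, Ndufaf4 stands farthest to the left, and Ndufs4 is the red point.

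The members' median was negative as deposited, and its size depended on how the arrays were scaled. Centring each array on its median gave 46 members that fell and 0 that rose (27.1% of all genes fell). The platform also carries probe sets for control RNAs. Centring by those of the hybridization controls gave 67 fallen members (49.2% of all genes) and by those of the poly-A controls 84 (75.2% of all genes), again with 0 that rose. Both are called spike-ins here. The members' median was −0.23, −0.37 and −0.61 under these centrings and that of all genes −0.09, −0.24 and −0.47. Each centring lowered the starved arrays against control, by 0.05 (array median), 0.19 (hybridization) and 0.43 (poly-A spike-ins). The members' median could thus only move down. All 42 genes that fell as deposited also fell under each of the centrings, which their direction favoured and which is no separate support. A spike-in centring shifts every gene of an array by the same uncertain amount, so its counts are no separate evidence for each gene.

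**Figure D2:**
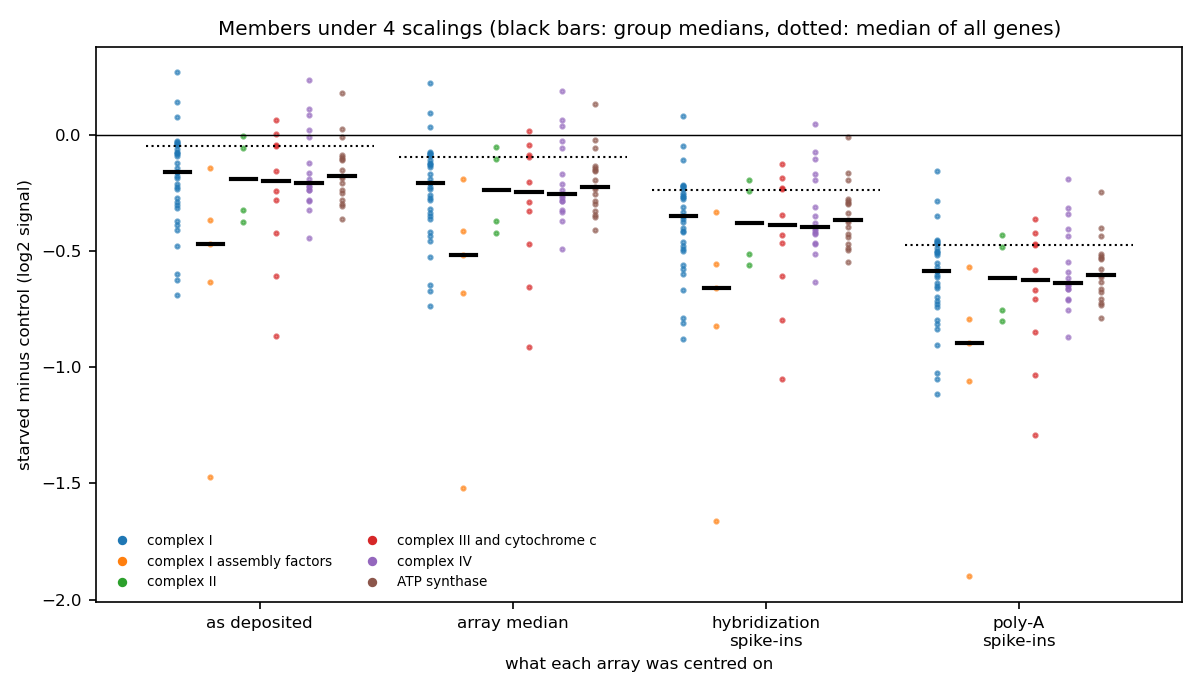
Differences of the members (dots, log2 signal, vertical axis) with arrays as deposited or centred on the array median, the hybridization spike-ins or the poly-A spike-ins (horizontal axis), coloured by complex. Black bars are group medians and dotted lines the median of all genes, which moves from −0.05 to −0.47. The median of each group lies below the dotted line and the assembly factors are lowest. Centring shifts all genes alike, so this holds under every scaling.

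In starved cells the first array stood above the others of its group for many members. It was the highest of the 3 starved arrays for 58 of the 86 members (67.4%), against 45.4% of all genes. The median member differed from the control mean by −0.13 in starved replicate 1, −0.22 in replicate 2 and −0.24 in replicate 3, while control arrays were within 0.01 of it. Without starved replicate 1 the count was 44 fallen and 1 risen, and 22.1% of all genes fell.

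Promoters are shown for the genes with the deepest falls outside and inside the finished chain (Ndufaf4 and Cycs), for the gene that rose (Ndufs4), and for the Atp5g1, Atp5g2 and Atp5g3 genes, which encode the same mature protein and of which only Atp5g1 passed the test. Each is the stretch of 250 bases before the annotated start, from RefSeq (GRCm38.p6), written 5′ to 3′ along the gene in lower case, with matches to the motifs below in capitals.

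Ndufaf4 (chr4:24897833-24898082, plus strand): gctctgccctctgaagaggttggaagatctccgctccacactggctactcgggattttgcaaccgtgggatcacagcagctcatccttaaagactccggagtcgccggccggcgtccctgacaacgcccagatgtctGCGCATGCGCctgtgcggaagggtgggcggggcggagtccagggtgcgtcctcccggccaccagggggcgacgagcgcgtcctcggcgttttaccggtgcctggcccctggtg
Cycs (chr6:50566570-50566819, minus strand): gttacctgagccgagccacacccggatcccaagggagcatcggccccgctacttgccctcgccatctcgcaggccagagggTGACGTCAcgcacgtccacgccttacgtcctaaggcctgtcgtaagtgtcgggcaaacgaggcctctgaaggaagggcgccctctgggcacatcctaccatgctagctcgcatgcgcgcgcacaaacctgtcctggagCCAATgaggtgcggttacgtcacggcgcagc
Ndufs4 (chr13:114388095-114388344, minus strand): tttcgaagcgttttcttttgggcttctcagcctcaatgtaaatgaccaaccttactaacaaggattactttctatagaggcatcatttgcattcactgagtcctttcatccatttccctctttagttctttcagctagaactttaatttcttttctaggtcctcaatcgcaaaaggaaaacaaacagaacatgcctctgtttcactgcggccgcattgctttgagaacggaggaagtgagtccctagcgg
Atp5g1 (chr11:96075632-96075881, minus strand): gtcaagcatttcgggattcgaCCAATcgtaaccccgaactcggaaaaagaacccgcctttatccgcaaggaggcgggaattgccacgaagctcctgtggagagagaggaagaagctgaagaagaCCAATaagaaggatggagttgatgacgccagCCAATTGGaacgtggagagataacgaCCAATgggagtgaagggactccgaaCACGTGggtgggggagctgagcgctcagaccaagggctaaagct
Atp5g2 (chr15:102671048-102671297, minus strand): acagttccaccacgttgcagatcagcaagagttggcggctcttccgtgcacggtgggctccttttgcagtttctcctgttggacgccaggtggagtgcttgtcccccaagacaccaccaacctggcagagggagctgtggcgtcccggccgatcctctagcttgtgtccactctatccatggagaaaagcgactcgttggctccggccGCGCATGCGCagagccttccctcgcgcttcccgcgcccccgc
Atp5g3 (chr2:73911327-73911576, minus strand): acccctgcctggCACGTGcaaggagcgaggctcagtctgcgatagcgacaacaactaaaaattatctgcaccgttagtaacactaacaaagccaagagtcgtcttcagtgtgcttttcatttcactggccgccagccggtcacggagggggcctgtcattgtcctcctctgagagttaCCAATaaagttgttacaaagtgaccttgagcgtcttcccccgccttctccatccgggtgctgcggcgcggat

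The motifs, searched on both strands, were the NRF1 site (GCGC, any base, then TGCGC), the ETS site ACTTCCGG bound by GABPA, the YY1 site AAGATGGC, the cAMP response element TGACGTCA, the CCAAT box and the E-box CACGTG, none of which contains another. NRF1, GABPA and YY1 are known regulators of respiratory genes. Of the 86 members 71 had a promoter entry, and a gene with several entries was counted if any held the motif. The NRF1 letters were in 11 of the 71 (15.5%), against 7.63% of 9882 tested genes and 4.23% of all 27025 genes with an entry. They were in 4 of the 36 fallen members (11.1%) and in 7 of the 34 that did not pass (20.6%). The E-box was in 6 of 71 members (8.45%), against 9.19% of tested and 6.86% of all genes. It was in 1 of 36 fallen members (2.78%) and 5 of 34 that did not pass (14.7%). The cAMP response element was in 4 of 71 members (5.63%; 2.53% of tested and 1.77% of all genes), the ETS site in 3 (4.23%; 5.37% and 3.23%), the YY1 site in 1 (1.41%; 2.13% and 1.83%) and the CCAAT box in 29 (40.8%; 39.8% and 37.5%). Fallen members and those that did not pass held the cAMP response element in 5.56% and 5.88%. These shares were 41.7% and 41.2% for the CCAAT box, 5.56% and 2.94% for the ETS site, and 2.78% and 0% for the YY1 site. No motif share was tested. Median GC content was 57.6% both in fallen members and in those that did not pass. In the printed stretches the NRF1 match of Ndufaf4 began 113 bases before the start and that of Atp5g2 42 bases before it, Cycs held a cAMP response element that began 169 bases before the start, and Atp5g1 held 5 CCAAT matches, 2 of which overlap, and an E-box. A match is a run of letters and not a shown binding site.

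Complex I takes electrons from NADH through a flavin and a chain of iron-sulfur clusters in its matrix arm, and its many accessory subunits surround this core. Of its 33 measured subunits 15 fell (45.5%, against 22.0% of all genes), 1 rose and 17 did not pass (median −0.16). After poly-A spike-in centring 32 fell and 0 rose, where 75.2% of all genes fell. The deepest fall was that of Ndufc1, a small accessory subunit of the membrane arm. Its signals were 11.84, 11.87 and 11.86 in control and 11.11, 11.26 and 11.13 in starved arrays. The groups were far apart, with a 1.61-fold lower level in starved cells (−0.69, SE 0.07, adjusted p = 3.58e-05).

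Ndufv3, an accessory subunit near the NADH-binding site, measured 11.65, 11.74 and 11.74 in control and 11.13, 11.12 and 11.003 in starved arrays. Ndufb7, an accessory subunit of the membrane arm, measured 11.33, 11.31 and 11.29 in control and 10.71, 10.80 and 10.62 in starved arrays. In both genes every starved array was below every control array, and the differences were −0.62 (SE 0.07, adjusted p = 7.25e-05) and −0.60 (SE 0.07, adjusted p = 9.68e-05). The other 10 accessory subunits that fell ranged from Ndufa1 (−0.48) to Ndufc2 (−0.19). Between them lay Ndufb2 (−0.39), Ndufb10 (−0.31), Ndufa13 (−0.30), Ndufs5 (−0.29), Ndufa3 (−0.27), Ndufab1 (−0.23), Ndufb5 (−0.22) and Ndufb8 (−0.21). With each of the 6 arrays left out in turn, Ndufa3 kept its call in 5 fits, Ndufab1 in 3 and Ndufb8 in 2. Ndufb5 and Ndufc2 kept it in 1, and the others in all. Ndufab1 is also the acyl carrier protein of mitochondria, and its probe sets disagreed: a dimmer set fell as well (−0.44) while the dimmest, at 3.84 in control, rose (0.61). The 13 accessory subunits that did not pass ranged from Ndufa12 (−0.18) to Ndufa6 (0.14). Among them other probe sets fell, when each was tested, for Ndufa12 (−0.22 and −0.24), Ndufb6 (−0.32, against −0.08 in the set used) and Ndufa10 (−0.19 in a set at 4.94 in control, against −0.07).

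Of the 6 measured subunits of the catalytic core 2 fell (33.3%, against 22.0% of all genes) and 4 did not pass (median −0.10). Ndufs1, which carries iron-sulfur clusters of the NADH-oxidising part, measured 9.87, 9.69 and 9.67 in control and 9.25, 9.32 and 9.43 in starved arrays. Ndufs8, which carries clusters close to the ubiquinone site, measured 11.91, 11.95 and 11.86 in control and 11.48, 11.65 and 11.47 in starved arrays. Both fell without overlap of the groups, with differences of −0.41 (SE 0.08, adjusted p = 0.00251) and −0.37 (SE 0.08, adjusted p = 0.00275).

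The other core subunits overlapped between groups. Ndufs7, next to the ubiquinone site, measured 10.42, 10.45 and 10.32 in control and 10.41, 10.29 and 10.13 in starved arrays (−0.12, SE 0.09, adjusted p = 0.274). Ndufv1, which binds NADH and the flavin, measured 11.26, 11.23 and 11.16 in control and 11.13, 11.21 and 11.09 in starved arrays (−0.08, SE 0.07, adjusted p = 0.393). For both genes 2 of the 3 starved arrays were below all controls and the other was not. Ndufs3, a structural core subunit, measured 10.78, 10.72 and 10.83 in control and 10.79, 10.72 and 10.72 in starved arrays (−0.03, SE 0.07, adjusted p = 0.722). Ndufv2, which holds a cluster beside the flavin, measured 11.70, 11.70 and 11.75 in control and 11.75, 11.63 and 11.69 in starved arrays (−0.03, SE 0.07, adjusted p = 0.771). All 4 of these fell under either spike-in centring, with differences of −0.55 (Ndufs7) to −0.45 (Ndufv2) for the poly-A set.

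Ndufs4, an accessory subunit needed for a stable NADH-oxidising part, was the member that rose. It measured 10.23, 10.20 and 10.21 in control and 10.64, 10.39 and 10.42 in starved arrays. All starved arrays lay above control, starved replicate 1 highest (0.27, SE 0.08, adjusted p = 0.0215). A dimmer probe set also rose (0.33), and the dimmest did not pass (0.06). The rise lost its call without control replicate 1 (0.28, adjusted p = 0.0513), control replicate 2 (0.26, adjusted p = 0.0632) or control replicate 3 (0.27, adjusted p = 0.0577), with array-median centring (0.22, adjusted p = 0.0573) and with centring on the hybridization spike-ins (0.08). With the poly-A spike-ins it lay at −0.16.

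The measured assembly factors of complex I gave the deepest fall of all members. Of 5 genes 4 fell (80%, against 22.0% of all genes) and Ndufaf5 (−0.14) did not pass (median −0.47). After poly-A spike-in centring all 5 fell, as did 75.2% of all genes. Ndufaf4, which acts in early assembly of the matrix arm, measured 8.65, 8.52 and 8.61 in control and 7.08, 7.02 and 7.26 in starved arrays. Its level was 2.78-fold lower in starved cells (−1.47, SE 0.08, adjusted p = 7.16e-07), with more than 1 log2 unit between the groups.

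Ndufaf3, its partner in the same early step, measured 8.67, 8.67 and 8.59 in control and 8.13, 7.93 and 7.97 in starved arrays. Ndufaf1, which acts on the membrane arm, measured 8.56, 8.57 and 8.54 in control and 7.997, 8.11 and 8.15 in starved arrays. Neither pair of groups overlapped, and the differences were −0.63 (SE 0.08, adjusted p = 0.000106) and −0.47 (SE 0.07, adjusted p = 0.000394). Ndufaf7, a methyltransferase that modifies a core subunit, fell as well (−0.37, adjusted p = 0.00575).

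**Figure D3:**
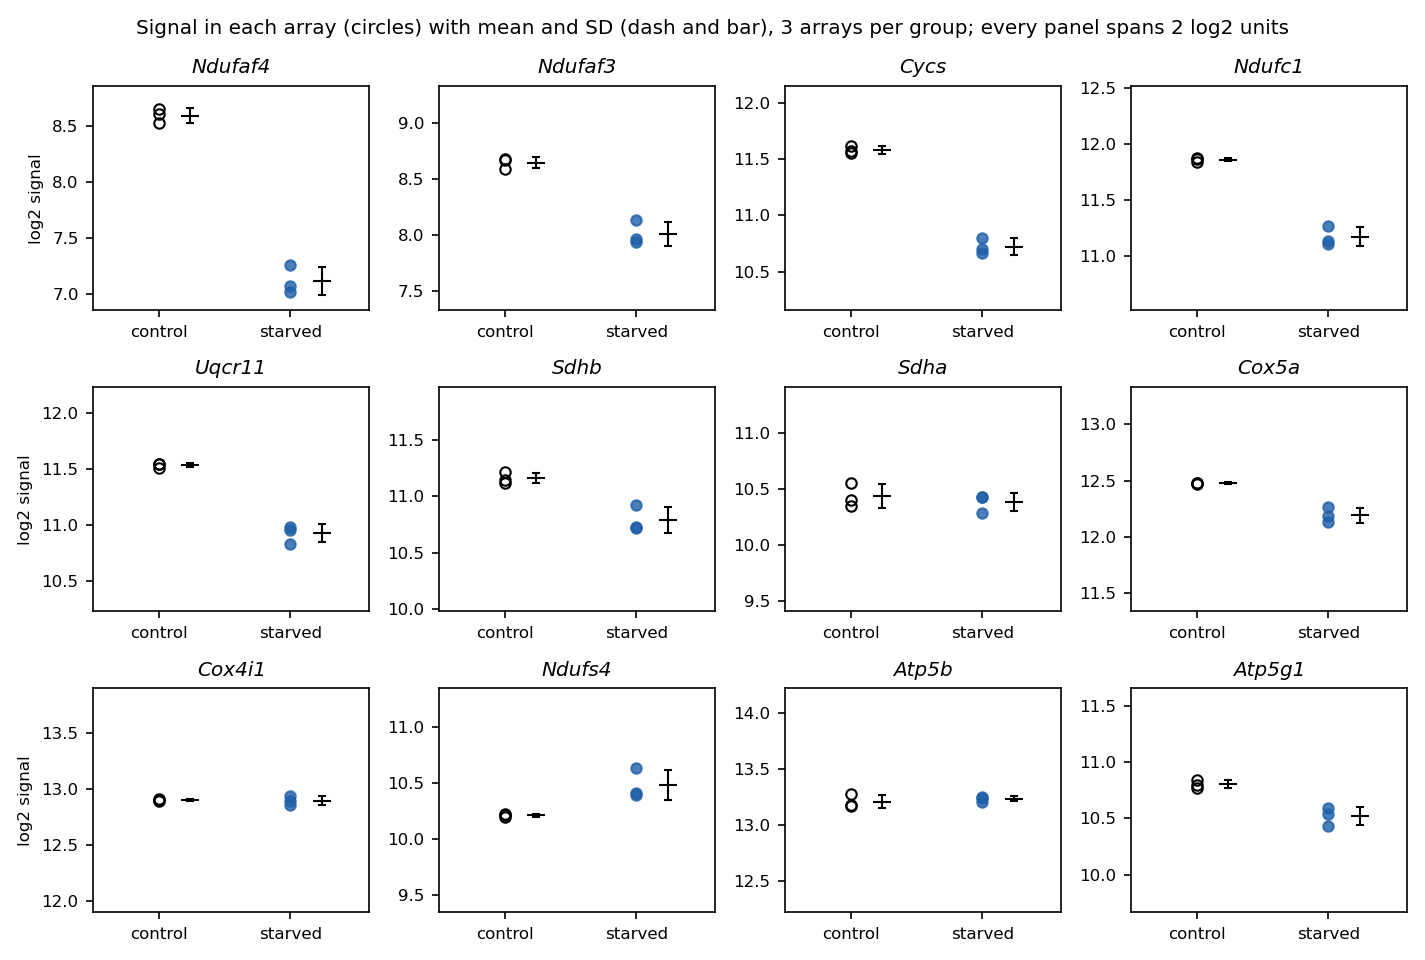
Log2 signal (vertical axis) in each control (open circles) and starved array (filled circles) for 12 members, with group mean and SD beside them; every panel spans the same range of the log2 scale. Ndufaf4 shows the widest gap, Cycs, Ndufc1 and Uqcr11 differ by −0.86, −0.69 and −0.61, Sdha, Cox4i1 and Atp5b overlap, and Ndufs4 lies higher in starved arrays.

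Complex II, succinate dehydrogenase, is shared with the tricarboxylic acid cycle and has no subunit encoded in mitochondria. Of its 4 genes 2 fell (50%, against 22.0% of all genes) and 2 did not pass. Sdhb, the iron-sulfur subunit, measured 11.21, 11.12 and 11.15 in control and 10.92, 10.73 and 10.72 in starved arrays (−0.37, SE 0.08, adjusted p = 0.00323). Sdhc, a membrane anchor, measured 9.95, 9.96 and 10.06 in control and 9.73, 9.67 and 9.60 in starved arrays (−0.33, SE 0.07, adjusted p = 0.00443). In both the groups were separate. The flavoprotein Sdha measured 10.55, 10.40 and 10.35 in control and 10.43, 10.29 and 10.42 in starved arrays (−0.06, SE 0.08, adjusted p = 0.606). A further Sdha probe set, at 10.30 in control, lay at −0.21 and was just short of the threshold when each set was tested (adjusted p = 0.0507). The other anchor, Sdhd, measured 10.68, 10.67 and 10.64 in control and 10.83, 10.52 and 10.63 in starved arrays (−0.01, SE 0.09, adjusted p = 0.968), starved replicate 1 being the highest of all arrays. Sdha and Sdhd overlapped between groups, and both fell after poly-A spike-in centring (−0.48 and −0.43).

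Among complex III and cytochrome c 5 of 10 genes fell (50%, against 22.0% of all genes) and 0 rose (median −0.20). All 10 fell after poly-A spike-in centring, as did 75.2% of all genes. Cycs, the mobile electron carrier that also triggers caspase activation when it leaves mitochondria, had the deepest fall of all members after Ndufaf4. It measured 11.55, 11.62 and 11.58 in control and 10.70, 10.66 and 10.80 in starved arrays. The groups were far apart, with a 1.82-fold lower level (−0.86, SE 0.07, adjusted p = 7.89e-06), and its other probe sets also fell (−1.06 and −0.82).

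Uqcr11, a small subunit of complex III, measured 11.55, 11.55 and 11.51 in control and 10.99, 10.96 and 10.84 in starved arrays (−0.61, SE 0.07, adjusted p = 7.75e-05). Cyc1, the heme-bearing cytochrome c1 that hands electrons to cytochrome c, measured 10.81, 10.67 and 10.60 in control and 10.26, 10.31 and 10.25 in starved arrays (−0.42, SE 0.08, adjusted p = 0.00134). Neither gene's groups overlapped. The Rieske iron-sulfur protein Uqcrfs1 measured 10.25, 10.28 and 10.30 in control and 10.19, 10.04 and 10.14 in starved arrays; the groups were separate but it did not pass (−0.16, SE 0.07, adjusted p = 0.0992). The small subunit Uqcrq (−0.28) and the core protein Uqcrc1 (−0.24) fell, while Uqcrc2 (−0.05), Uqcrb (−0.04), Uqcrh (0.00) and Uqcr10 (0.06) did not pass. For Uqcr10 the brightest probe set was used, and its dimmer sets rose by 0.59 and 0.39 when each probe set was tested.

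Complex IV, cytochrome c oxidase, has its catalytic centre in subunits encoded by mitochondrial DNA, and the nuclear subunits measured here surround it. Of 17 genes 9 fell (52.9%, against 22.0% of all genes), 0 rose and 8 did not pass (median −0.21). The count was 4 without control replicate 1 (18.2% of all genes fell), 3 without control replicate 2 (17.6%) and 5 without control replicate 3 (18.4%). It was 5 without starved replicate 2 (18.7% of all genes) and 4 without starved replicate 3 (19.7%). With poly-A spike-in centring 16 fell, as did 75.2% of all genes. Cox7a2l, which helps join complexes III and IV, measured 12.10, 12.05 and 12.11 in control and 11.75, 11.82 and 11.72 in starved arrays (−0.33, SE 0.07, adjusted p = 0.00305). Cox5a, a matrix-side subunit, measured 12.48, 12.47 and 12.48 in control and 12.26, 12.13 and 12.19 in starved arrays (−0.28, SE 0.07, adjusted p = 0.00718). For both genes all starved arrays lay below control. Ndufa4 measured 12.55 in each control array and 12.44, 12.23 and 12.28 in starved arrays (−0.24, SE 0.07, adjusted p = 0.0269), a call lost without any control array (adjusted p = 0.0688 to 0.0722) and without starved replicate 2 (0.0874) or 3 (0.0657).

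Further subunits of complex IV that fell were Cox8a (−0.28), Cox6c (−0.23), Cox5b (−0.22) and Cox7a2 (−0.21). With each of the 6 arrays left out in turn, Cox8a and Cox5b kept the call in 2 fits and Cox6c and Cox7a2 in 1. Cox4i1, a large nuclear subunit with a regulatory ATP site, measured 12.91, 12.90 and 12.90 in control and 12.94, 12.89 and 12.86 in starved arrays. Its groups overlapped with little spread (−0.01, SE 0.07, adjusted p = 0.941), though it lay at −0.43 after poly-A spike-in centring. Cox6a1 (−0.12) and Cox6b1 (0.02) did not pass.

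Of the 6 isoforms of complex IV that are mostly used in muscle, testis or under low oxygen, Cox7a1, Cox6b2, Cox8b and Cox4i2 had control signals of 3.81 to 5.30, while Cox6a2 (6.91) and Cox8c (7.30) lay above the array medians. Cox4i2, the isoform linked to low oxygen, measured 5.36, 5.22 and 5.33 in control and 4.82, 5.18 and 5.34 in starved arrays and did not pass (−0.19, SE 0.12, adjusted p = 0.231), starved replicate 1 being low. Cox7a1, the heart and muscle isoform, fell from 3.83, 3.88 and 3.73 to 3.45, 3.34 and 3.32 (−0.44, SE 0.07, adjusted p = 0.000769), values close to the dim end of the table. The testis isoform Cox8c also fell (−0.24), while Cox8b (−0.16), Cox6a2 (0.11) and Cox6b2 (0.08) did not pass. The probe sets of Cox7c, a widely used subunit, were dim as well (4.68 ± 0.17 in control for the brighter), and it did not pass (0.23, SE 0.10, adjusted p = 0.0791).

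ATP synthase has a catalytic F1 head, a rotating ring of c subunits in the membrane and a peripheral stalk that holds the head still. Of 17 genes 7 fell (41.2%, against 22.0% of all genes), 0 rose and 10 did not pass (median −0.18). The count was 4 without control replicate 3 (18.4% of all genes fell) or without starved replicate 2 (18.7%). With poly-A spike-in centring all 17 fell, as did 75.2% of all genes. Atp5j, coupling factor 6 of the stalk, measured 11.91, 11.91 and 11.93 in control and 11.63, 11.52 and 11.51 in starved arrays (−0.36, SE 0.07, adjusted p = 0.00174). Atp5d, the delta subunit of F1, measured 12.46, 12.49 and 12.37 in control and 12.19, 12.18 and 12.02 in starved arrays (−0.31, SE 0.08, adjusted p = 0.00859). Atp5e, the epsilon subunit beside it, measured 10.98, 10.93 and 10.85 in control and 10.56, 10.68 and 10.63 in starved arrays (−0.30, SE 0.07, adjusted p = 0.00704). None of these groups overlapped.

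The large subunits of the F1 head did not pass. They were the alpha subunit Atp5a1 (−0.15), the gamma shaft Atp5c1 (−0.01) and the catalytic beta subunit Atp5b (0.02, 13.21 ± 0.06 in control and 13.23 ± 0.02 in starved arrays). A dim second probe set of Atp5c1 rose (1.47, from 5.53 in control) when each probe set was tested. In the stalk Atp5h fell (−0.21), and Atp5o (−0.19) and Atp5pb (−0.09) did not pass. Of the small membrane subunits Atp5k (−0.25) and Atp5j2 (−0.24) fell, and Atp5md (−0.11), Atp5l (−0.10) and Atp5mpl (−0.10) did not. With each of the 6 arrays left out in turn, Atp5j2 kept its call in 3 fits, Atp5k in 2 and Atp5h in 1.

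The c ring is built from a protein that Atp5g1, Atp5g2 and Atp5g3 all encode, each with its own import sequence. Atp5g1 measured 10.84, 10.77 and 10.80 in control and 10.59, 10.54 and 10.43 in starved arrays (−0.28, SE 0.07, adjusted p = 0.00938). Atp5g3 measured 12.79, 12.84 and 12.78 in control and 12.65, 12.64 and 12.60 in starved arrays (−0.18, SE 0.07, adjusted p = 0.0506). Atp5g2 measured 11.81, 11.83 and 11.87 in control and 12.14, 11.99 and 11.92 in starved arrays (0.18, SE 0.08, adjusted p = 0.0855). Starved arrays were below control for Atp5g1 and Atp5g3 and above it for Atp5g2, but only Atp5g1 passed; Atp5g2 lay at −0.01 with the hybridization and −0.25 with the poly-A spike-ins. Within an array, which no centring alters, the log2 signal of Atp5g2 minus that of Atp5g1 was 1.04 ± 0.05 in control and 1.496 ± 0.05 in starved arrays. That of Atp5g2 minus Atp5g3 went from −0.97 ± 0.05 to −0.61 ± 0.09. Both shifts, 0.46 and 0.36, separated the groups, with an exact two-sided permutation p of 0.1 each, the smallest that 3 arrays against 3 can give (0.15 adjusted over 3 pairs). Atp5g3 minus Atp5g1 shifted by 0.10 and overlapped (exact permutation p = 0.2).

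Genes that serve the chain but are outside the symbol rule fell as well. Of 33 measured assembly factors of complexes I to V 21 fell (63.6%, against 22.0% of all genes) and 0 rose, with a median of −0.33. All 33 fell after poly-A spike-in centring, which also lowered 75.2% of all genes past the threshold. The lowest adjusted p were those of Higd1a, a small inner membrane protein that binds complex IV (−1.51, adjusted p = 6.13e-07), Sdhaf1, which helps insert iron-sulfur clusters into complex II (−1.04, adjusted p = 5.33e-06), and Sco2, a copper chaperone of complex IV (−0.75, adjusted p = 3.13e-05). Of 13 genes that copy, transcribe or maintain mitochondrial DNA 9 fell (12 after poly-A spike-in centring) and 0 rose, with a median of −0.29. Those 9 were 69.2% of the list, against 22.0% of all genes. Among them were the protease Lonp1 (−0.64, adjusted p = 5.23e-05), the mitochondrial RNA polymerase Polrmt (−0.56, adjusted p = 0.000103) and its elongation factor Tefm (−0.68, adjusted p = 0.000192).

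Protein import and porin genes fell in 13 of 23 cases (56.5%, against 22.0% of all genes), with a median of −0.32. After poly-A spike-in centring 22 fell, as did 75.2% of all genes. The small import proteins of the space between the membranes Timm8a1 (−1.19, adjusted p = 7.19e-07) and Timm10 (−1.05, adjusted p = 7.02e-06) and the carrier translocase Timm22 (−0.86, adjusted p = 5.72e-06) led this list. Its risen gene was the porin Vdac1 (0.36, but 0.17 with the hybridization and −0.07 with the poly-A spike-ins). Of 5 carrier and uncoupling genes 1 fell (20%, against 22.0% of all genes) and 0 rose. The fallen gene was Ucp3 (−0.23, adjusted p = 0.031), and the ADP/ATP carriers Slc25a4 (−0.10) and Slc25a5 (0.02) did not pass.

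**Figure D4:**
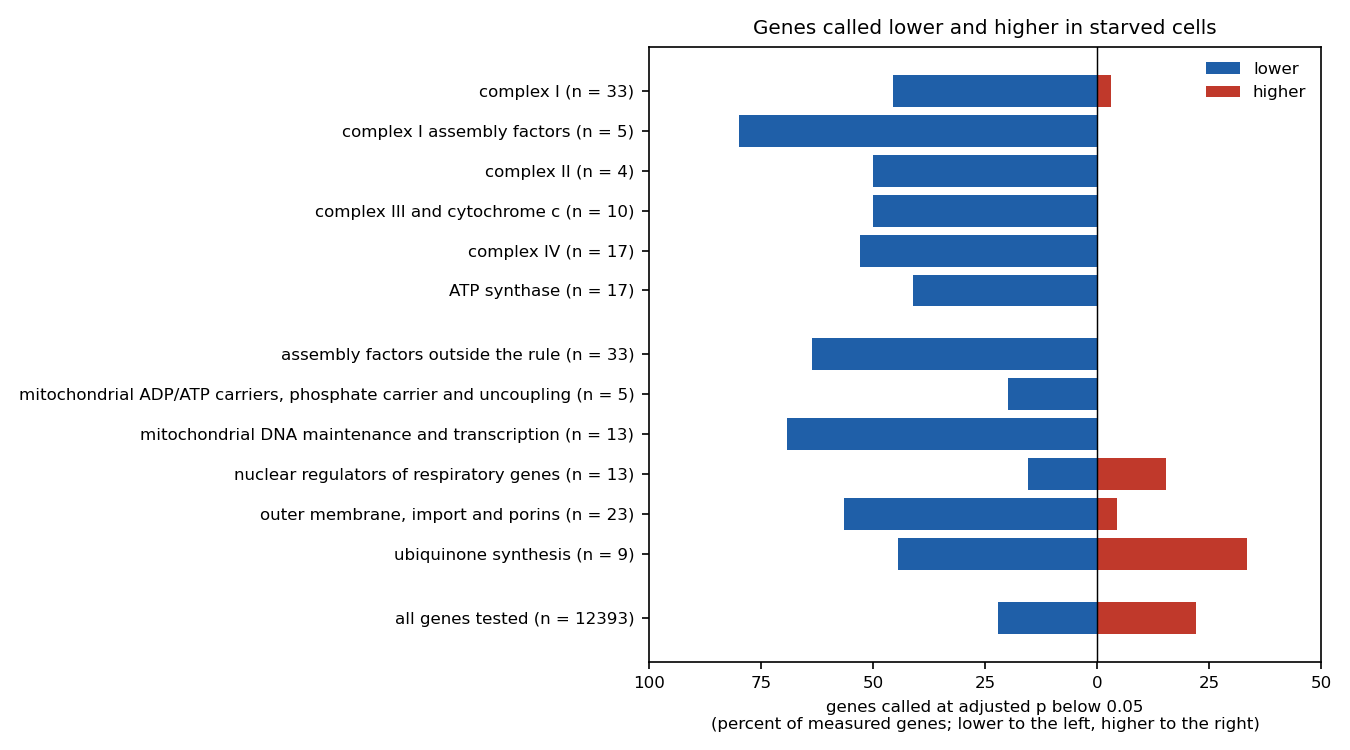
Share of measured genes (percent, horizontal axis) that fell (blue, to the left) or rose (red, to the right) at an adjusted p below 0.05 in the groups of members, in related mitochondrial lists and among all genes tested. In all genes the shares are nearly equal (22.0% and 22.1%), and in the members 1 gene, Ndufs4 of complex I, is on the red side.

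Ubiquinone synthesis and nuclear regulators went both ways in the deposited scaling, as did all genes (22.0% fell and 22.1% rose). Of 9 ubiquinone genes 4 fell and 3 rose, among them the atypical kinase Coq8a, which rose from a dim 5.18 by 1.46 (adjusted p = 6.58e-06; 1.03 with the poly-A spike-ins), and Coq4 (−0.64, adjusted p = 0.000274) and the hydroxylase Coq7 (−0.38, adjusted p = 0.00147), which fell. Of 13 transcription factors and coactivators of respiratory genes 2 were lower and 2 higher past the threshold (15.4% each, below the shares of all genes). The counts were 10 and 0 after poly-A spike-in centring, where 75.2% of all genes fell. The coactivator Pprc1 fell by 1.17 (adjusted p = 4.58e-06) and Ppargc1b by 0.43 (adjusted p = 0.00439), while both parts of the factor GABP, Gabpb1 (0.64, adjusted p = 0.000196) and Gabpa (0.34, adjusted p = 0.00512), rose; Gabpb1 was at 0.21 and did not pass, and Gabpa was at −0.08, with the poly-A spike-ins. Nrf1 (0.12) and Ppargc1a (−0.15) did not pass.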

How the data were processed

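RNA of 6 fibroblast samples, 3 starved and 3 control by title, was measured on 6 arrays. The authors deposited 1 log2 value per probe set and array, made with affy and RMA per the submitters' processing notes, whose versions were not given. The RMA method normalizes by quantiles, which removes any change in total messenger RNA. Folds of dim genes are compressed in such values. Of 22690 probe sets 20380 had 1 gene symbol in the platform annotation; the rest were left out. The brightest probe set stood for a gene, giving 12393 genes, with no filter. Arrays hold no read depth, and their number limits precision.

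Starved and control were compared with limma 3.58.1 in R 4.3.3 (lmFit, eBayes, two-sided, no covariate), adjusted by Benjamini-Hochberg over all genes. Plots used Python 3.11.15 and matplotlib 3.10.9. In 10 simulations of this design, 200 of 12393 genes were changed. The fit recovered 4.05% of changes of 0.25, 57.9% of 0.5 and 95.3% of 1, and 4.04% of calls were false. In the data 44.1% of genes were called, so these rates need not hold there. Same-numbered arrays did not deviate together (correlations −0.0046, −0.022 and 0.0021), so no covariate was used. With 3 arrays per group this check cannot settle whether the numbers mark pairs.

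The members, lists and tests were chosen with earlier results of these data known. Values in all arrays are given, per complex, for the 3 deepest falls and 2 largest rises that passed without overlap, and for genes set by role; of other lists up to 3 called genes with the smallest adjusted p were named, and further genes after their values were seen. Alternatives were the mean of probe sets, no _s_at or _x_at sets, no dimmest 40% of genes, further quantile normalization, 3 centrings, trend and robust eBayes, the replicate block, each array left out, an adjusted p of 0.01 and each probe set on its own.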

Additional observations from a re-analysis of the deposited data

How the results depend on the processing

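Of the 42 members that fell, 27 also fell in all of the 15 other fits that measured them, the stricter threshold aside. Counts of fallen members moved by over 1.5 times in several settings. Centring on the hybridization spike-ins gave 67 in all (49.2% of all genes), 27 of complex I and 13 of ATP synthase. Centring on the poly-A spike-ins gave 84 in all (75.2% of all genes). Of these 32 were of complex I, 4 of complex II, 10 of complex III with cytochrome c, 16 of complex IV and 17 of ATP synthase. An adjusted p of 0.01 gave 26 in all, 9 of complex I, 3 of complex IV and 4 of ATP synthase. The share of all genes at that threshold was not counted. The single risen member became 3 with the mean of probe sets, 2 without _s_at and _x_at sets, without the dimmest 40% of genes, with further quantile normalization and with trend and robust eBayes, 4 with each probe set on its own, and 0 under the 3 centrings and at an adjusted p of 0.01. The centrings subtract a set amount from every gene and the lower threshold tests more strictly; the cause of the other moves was not tested. Leaving out single arrays gave 29 to 44 fallen members (17.6% to 22.1% of all genes fell in the same fits) and 0 to 2 risen. The fallen were 11 to 15 of complex I, 4 to 5 of its assembly factors and 2 to 2 of complex II. They were 4 to 5 of complex III with cytochrome c, 3 to 8 of complex IV and 4 to 9 of ATP synthase. In some of these fits the counts of complex IV and of ATP synthase also moved by over 1.5 times.

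With the replicate block 38 members fell (21.0% of all genes fell) and 1 rose, and no sample correlated best with its own number (0 of 6). Of 491 values of the 33 members with all arrays printed, 452 kept their side of the threshold, 10 lost and 27 gained a call, and 2 turned with the poly-A spike-ins, Ndufs4 to −0.16 and Atp5g2 to −0.25. Of 46 members with several probe sets, 23 were called, and in 20 of these a further probe set was called the same way; the exceptions were Cox6c, Ndufa3 and Ndufb5. The simulations recovered few changes of 0.25, but with 200 of 12393 genes changed, whereas 44.1% were called in the data. Small falls may be missed, at a rate that the simulations do not give.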

Other observations

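A set of 8 probe sets matched several genes, of which at least 1 fits the symbol rule, and entered no comparison. They were lower on average in starved arrays, untested. The set shared by Ndufs6 and Ndufs6b went from 10.34 ± 0.08 to 9.93 ± 0.07, with every starved array below control. A set shared by the Ndufb4 genes went from 10.73 ± 0.00 to 10.52 ± 0.11, and a second from 10.61 ± 0.06 to 10.38 ± 0.19, where starved replicate 1 (10.60) overlapped control. The set of Ndufa11 and Ndufa11b went from 11.05 ± 0.05 to 10.94 ± 0.13 and overlapped.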
